A study of Mus musculus with 48 samples.

Results

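Collagen genes were followed in endothelial cells sorted from newborn and young adult mice. A gene was counted as a collagen gene when its symbol in the deposited count table was Col, a number, the letter a and a number, as in Col4a1. This rule was met by 41 of the 15569 genes listed. By the structure of the protein they comprised 8 basement membrane chains (Col4a1 to Col4a6, Col15a1 and Col18a1), 11 fibrillar chains, 4 type VI chains, 2 short-chain network-forming chains (Col8a1 and Col8a2), 9 fibril-associated chains, 4 transmembrane chains and 3 others (Col7a1, Col26a1 and Col28a1). All 41 passed the filter on low counts when cell fractions were compared and when TdTomato- libraries were compared with each other, and 40 passed it among TdTomato+ libraries.

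Every mouse carried Abcg2CreERT, a tamoxifen-inducible Cre recombinase driven from the Abcg2 locus, and ROSATdTomato, a red fluorescent reporter switched on by Cre. All were given 50 mg/kg tamoxifen intraperitoneally 24 h before the tissue was taken, so neither fraction came from untreated animals. CD31+CD45-Ter119- cells, which by these surface proteins are endothelial and not blood cells, were sorted from collagenase-digested tissue into a TdTomato+ fraction, called vascular endothelial stem cells (VESC) by the submitters, and a TdTomato- fraction, called mature endothelial cells. The reporter marks any cell in which Cre was active, so the endothelial identity of both fractions rests on the sort. The study asked how the 2 fractions differ at each age and in each organ. Tissue was heart at 6 weeks (6W, 5 pairs of libraries, 1 library per fraction in each pair), muscle at 6W (4 pairs), muscle at postnatal day 6 (P6, 5 pairs), lung at postnatal day 1 (P1, 5 pairs) and heart at P1 (4 pairs). Libraries of a pair are matched according to the labels. Whether a pair came from 1 mouse or from pooled mice is not said. The p-values of tests between fractions reflect scatter within these pairs, estimated over all tissues and ages together. Those of tests between ages or organs reflect scatter among the libraries of 1 fraction. A further P1 heart pair, whose TdTomato+ library the submitters recorded as failing quality control, was left out.

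The 46 libraries held 17512843 to 27622937 counted reads and 13048 to 14973 genes with a read. RNA integrity numbers (RIN, a 10-point score) ran from 3.6 to 8.5 in P1 heart TdTomato+ libraries, against 8.0 to 9.2 in their TdTomato- partners, and from 6.8 to 7.9 in 6W muscle TdTomato+ libraries, against 9.2 to 10.0. All 10 endothelial marker genes were detected in every group, at a summed 9516 to 23435 CPM per library (CPM are counts scaled to library size by the TMM method). All 6W muscle libraries and 6W heart pairs 5 and 6 were sequenced in run 190 and all others in run 176, so age and run cannot be told apart in muscle. The listed batch of P1 lung differed from that of P1 heart, so organ and batch cannot be told apart at P1. The tissue tag of 6W heart pairs 5 and 6 reads Muscle, while their titles and source names read Heart, and they were taken as heart. A list of 4 mesothelial marker genes summed to 32.3 to 53.3 CPM over all 6W heart libraries, these pairs included. In 6W muscle libraries the sum was 0 to 1.12 CPM. In sorted bulk RNA, fewer cells of a type and less RNA per cell cannot be told apart.

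Most collagens are secreted as helical trimers. Type IV collagen, most widely a trimer of the chains of Col4a1 and Col4a2, forms the network of the vascular basement membrane, to which types XV and XVIII, nidogens and the proteoglycan perlecan are attached, and endothelial cells are a main source of it. Fibrillar collagens (types I, III and V among others) form the cables of interstitial matrix and, with type VI beaded filaments, are made chiefly by fibroblasts and mural cells. The chains are hydroxylated and folded in the endoplasmic reticulum, trimmed outside the cell by procollagen proteinases, cross-linked by lysyl oxidases, sensed by integrins and discoidin domain receptors, and broken down by metalloproteinases.

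Col4a1 and Col4a2 lie head to head on mouse chromosome 8, on the minus and plus strands. Their RefSeq starts (GRCm38.p6) overlap by the 22 bases chr8:11312805-11312826, shown on the plus strand because these genes supplied most of the collagen RNA. In the deposited coordinates 2 bases lie between the starts. The promoters of Col8a1 and Col13a1 are shown because the sign of their TdTomato+ difference turned between organs or ages, and that of Col3a1 as the fibrillar gene with the deepest fall. Each is the 250 bases before the RefSeq start, 5′ to 3′ on the gene's strand: Col8a1 at chr16:57754738-57754987 on the minus strand, Col13a1 at chr10:61979109-61979358 on the minus strand and Col3a1 at chr1:45311288-45311537 on the plus strand. Capitals mark motifs on either strand. The GC box is GGGCGG, or CCGCCC when it lies on the other strand. The CCAAT box reads ATTGG on the other strand. The TATA box is TATAAA, read as TTTATA on the other strand. None of the marked motifs overlaps another.
Col4a1-Col4a2 start interval: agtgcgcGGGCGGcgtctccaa
Col8a1: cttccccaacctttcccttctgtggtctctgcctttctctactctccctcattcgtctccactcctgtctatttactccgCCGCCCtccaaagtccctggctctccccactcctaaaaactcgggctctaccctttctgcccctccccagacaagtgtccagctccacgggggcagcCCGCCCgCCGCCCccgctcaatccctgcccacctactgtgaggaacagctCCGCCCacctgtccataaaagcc
Col13a1: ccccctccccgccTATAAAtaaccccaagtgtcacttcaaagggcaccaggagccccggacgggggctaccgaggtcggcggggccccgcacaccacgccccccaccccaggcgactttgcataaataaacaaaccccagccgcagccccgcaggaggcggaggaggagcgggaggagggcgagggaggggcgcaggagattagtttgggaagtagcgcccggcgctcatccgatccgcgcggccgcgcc
Col3a1: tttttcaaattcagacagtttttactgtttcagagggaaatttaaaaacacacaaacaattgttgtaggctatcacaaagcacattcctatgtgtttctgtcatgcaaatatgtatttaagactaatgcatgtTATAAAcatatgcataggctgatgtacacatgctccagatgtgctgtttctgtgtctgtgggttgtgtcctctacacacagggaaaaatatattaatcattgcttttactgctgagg
The shared Col4a1-Col4a2 interval holds 1 GC box. Col8a1 holds 4 GC boxes, all in the reverse orientation, with first bases at -170, -73, -66 and -23 from the start. Col13a1 holds 1 TATA box at -237 and Col3a1 1 TATA box at -117. A GC box stood in 20 of the 35 RefSeq promoters of 32 collagen genes that could be matched (57.1%), against 32.7% of all 32851 promoters of that length. A CCAAT box stood in 34.3% of collagen promoters, against 33.8% of all, and a TATA box in 11.4%, against 12.4%. These are matches of letters only.

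Basement membrane chains supplied most of the collagen RNA in every library. Per gene length (CPM per kilobase), they took 57.6 to 98.3% of the summed collagen level, with a median of 90.5%, and Col4a1 and Col4a2 alone took 51.7 to 93.2%, with a median of 84.4%. Fibrillar chains took 0.934 to 31.7%, with a median of 5.82%. The summed basement membrane level was 703 ± 109.8 CPM per kilobase in TdTomato+ and 864 ± 157 in TdTomato- libraries of 6W heart (SD, n = 5 each) and 1008 ± 174 and 816 ± 191 in 6W muscle (n = 4 each). It was 2693 ± 201 and 2779 ± 273 in P6 muscle, 1101 ± 284 and 1114 ± 239 in P1 lung (n = 5 each), and 1664 ± 224 and 1347 ± 119.9 in P1 heart (n = 4 each), each with TdTomato+ first. P6 muscle stood highest in both fractions without overlap with any other tissue and age, whereas P1 heart, P1 lung, 6W muscle and 6W heart each overlapped with the next in that order. The sum was higher in the TdTomato+ library of all 4 P1 heart and all 4 6W muscle pairs, of 2 of 5 P1 lung pairs, of 1 of 5 P6 muscle pairs and of none of the 5 6W heart pairs.

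The summed fibrillar level was 43.3 ± 31 CPM per kilobase in TdTomato+ and 14.7 ± 4.7 in TdTomato- libraries of 6W heart, and 61.9 ± 28 and 34.7 ± 21 in 6W muscle. It was 247 ± 83 and 213 ± 87 in P6 muscle, 256 ± 167 and 133 ± 32 in P1 lung, and 31.9 ± 26 and 101 ± 16 in P1 heart. In P1 heart all 4 TdTomato+ libraries lay below all 4 TdTomato- libraries, at 18.7, 18.8, 19.5 and 70.5 against 81, 115, 94 and 113 CPM per kilobase, and pair 5 held the highest TdTomato+ value. In the other tissues and ages the fractions overlapped, and 15 of the 19 pairs had the higher fibrillar sum in TdTomato+. No test was made on these sums.

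**Figure D1:**
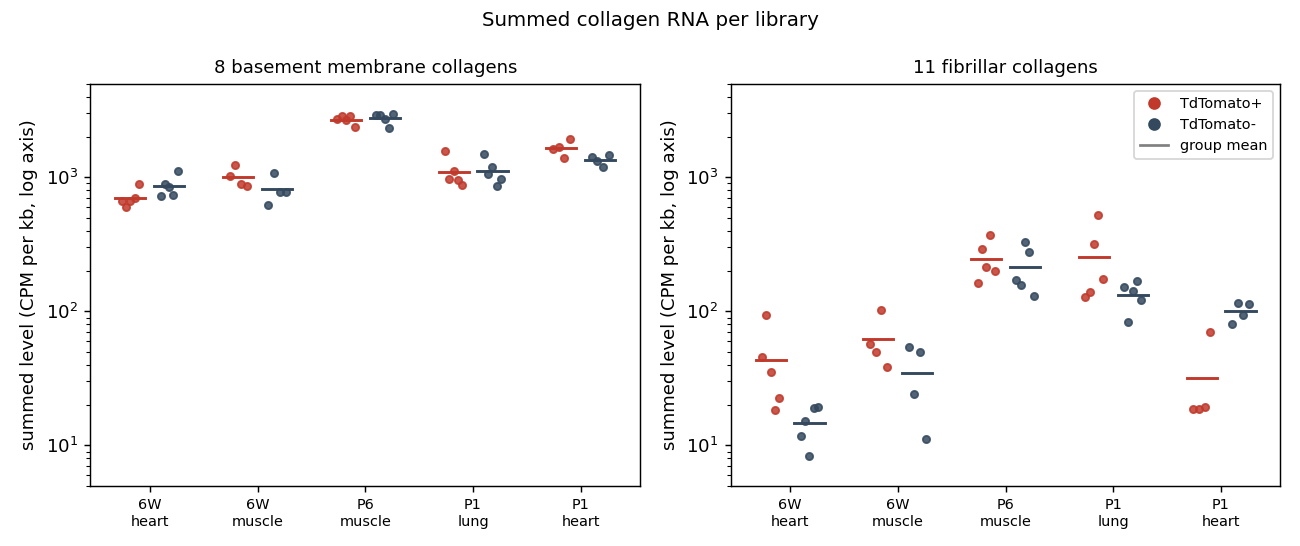
Summed level of the 8 basement membrane chains and the 11 fibrillar chains in each library, in CPM per kilobase on a log axis, for TdTomato+ (left) and TdTomato- (right) of each tissue and age; each point is 1 library. Basement membrane sums are highest in P6 muscle, and P1 heart is where all TdTomato+ fibrillar sums lie below the TdTomato- ones.

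The number of collagen genes that differed between TdTomato+ and TdTomato- cells was largest in P1 heart and the direction depended on organ and age. The quasi-likelihood test of edgeR was fitted to all 46 libraries with the pair as a block. Its p-values were adjusted by the Benjamini-Hochberg method over all 15557 genes tested, and a gene was called where the adjusted p was below 0.05. In 6W heart 1 of 41 collagens was called, higher in TdTomato+, against 0.874% of all genes called and 0.598% called higher. In 6W muscle 4 were called, 3 higher and 1 lower, against 5.23% of all genes (1.7% higher and 3.53% lower). In P6 muscle none was called, against 0.977% of all genes. An unadjusted p below 0.05 in this edgeR test was reached by 6 (1 higher, 5 lower). DESeq2 called 1 (Col13a1), and 7 were called when the P6 muscle libraries were fitted alone (2 higher, 5 lower). Shares of all genes under these other rules are not given here, so these counts are not read as particular to collagens. In P1 lung 6 were called, all higher, against 9.78% of all genes (4.88% higher and 4.9% lower). In P1 heart 20 were called, 3 higher and 17 lower, which is 48.8% of the collagens, against 14.7% of all genes (7.51% higher and 7.21% lower).

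The median collagen log2 fold change, TdTomato+ over TdTomato-, was 0.74 in 6W heart (0.78 with genes lacking a read in 1 fraction set at their bound), 0.42 in 6W muscle (0.49), 0.01 in P6 muscle, 0.78 in P1 lung and -2.21 in P1 heart (-2.23). The medians of all genes ran from -0.04 to 0.01. Scaling by library totals alone moved the all-gene median to -0.14 in P1 heart. Equality of the 5 TdTomato+ differences was rejected (adjusted p below 0.05) for 19 of 41 collagens, against 16.8% of all genes. They were 5 basement membrane chains, 5 fibrillar chains, 3 type VI chains, Col8a1, 1 fibril-associated chain, 2 transmembrane chains, Col26a1 and Col28a1.

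**Figure D2:**
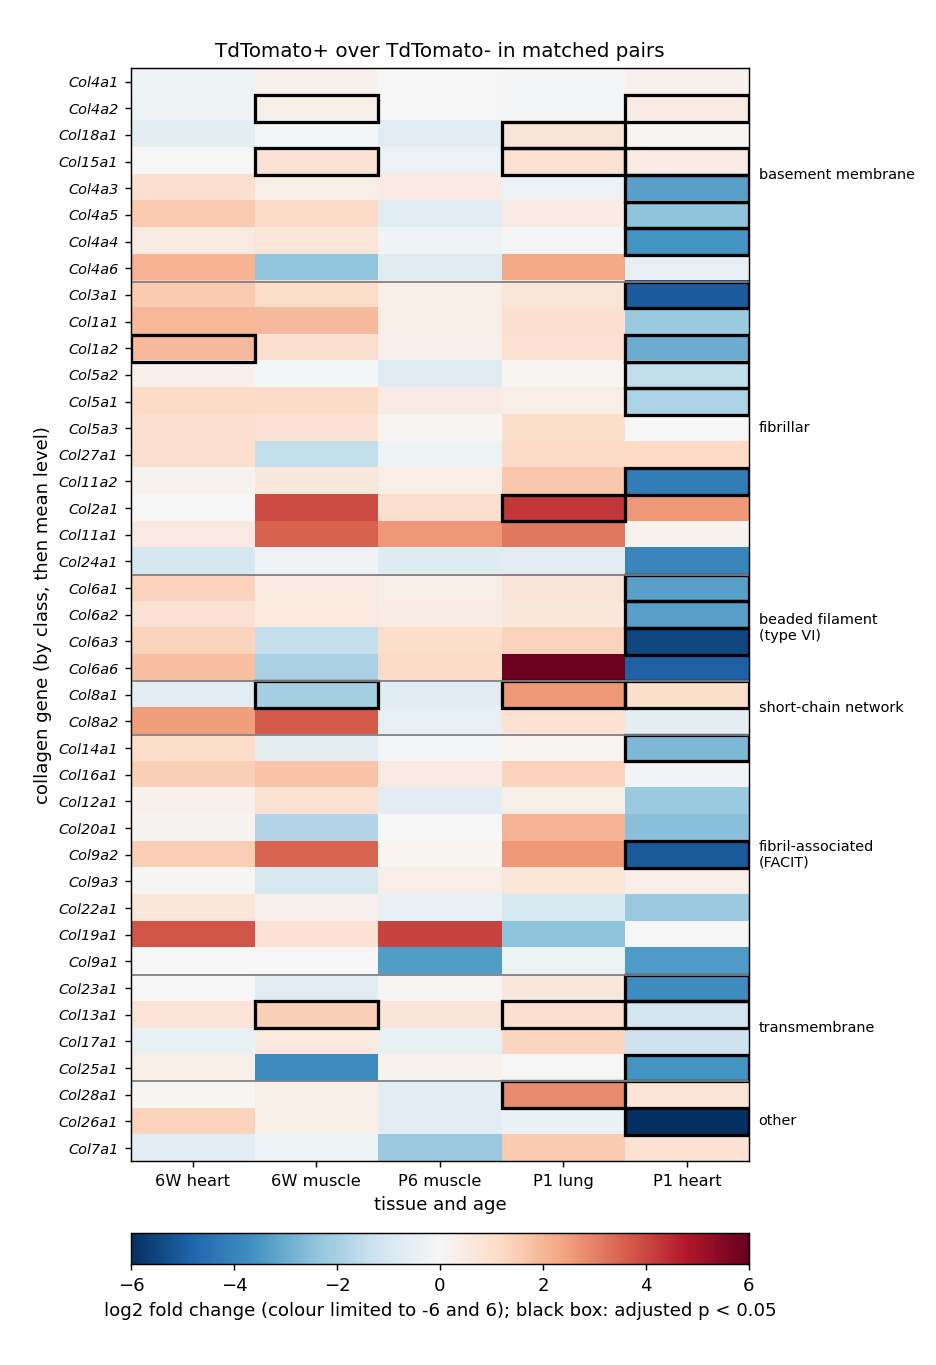
Log2 fold change, TdTomato+ over TdTomato-, of the 41 collagen genes (rows, by class) in 6W heart, 6W muscle, P6 muscle, P1 lung and P1 heart (columns), with colours limited to ±6 and a black box where the adjusted p was below 0.05. P1 heart holds 17 boxed decreases, while the 6 boxes in P1 lung are all increases.

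Among basement membrane chains, the Col4a1-Col4a2 pair changed little between fractions and Col15a1 was the chain most often higher in TdTomato+ cells. Col4a1, the α1 chain of type IV collagen, was not called in any tissue or age. In P1 heart it had 5098, 5457, 4132 and 6617 CPM in TdTomato+ libraries, against 4556, 4416, 3921 and 4797 CPM in TdTomato- libraries (log2 fold change 0.25, SE 0.10, adjusted p 0.104). In 6W heart it had 2749, 2392, 2707, 2743 and 3581 CPM in TdTomato+ libraries, against 2764, 3588, 3520.2, 2961 and 4467 CPM in TdTomato- libraries (log2 fold change -0.28, SE 0.09, adjusted p 0.166). The fractions overlapped in both, although TdTomato+ was higher in 4 of 4 P1 heart pairs and lower in 5 of 5 6W heart pairs. In 6W muscle Col4a1 had 3818, 4640.2, 3398 and 3203 CPM in TdTomato+ libraries, against 2329.998, 4206, 3024 and 2994 CPM in TdTomato- libraries, and in P1 lung 5380.5, 3607, 4227, 3610.5 and 3027 CPM in TdTomato+ libraries, against 5374, 3989, 4601, 3324 and 3827 CPM in TdTomato- libraries. In P6 muscle, its highest level, it had 11662, 12590.4, 11577, 11908 and 10175 CPM in TdTomato+ libraries, against 12320.3, 12459.5, 11499, 9857 and 12777 CPM in TdTomato- libraries. The fractions overlapped in all 3, although TdTomato+ was higher in 4 of 4 6W muscle pairs.

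Col4a2, the α2 chain of the same trimer, was called in P1 heart, where it had 3492, 3508, 3332 and 3385 CPM in TdTomato+ libraries, against 2672, 2287, 2238 and 2771 CPM in TdTomato- libraries (log2 fold change 0.47, SE 0.10, adjusted p 0.00246). Every TdTomato+ value lay above every TdTomato- value. In 6W muscle it had 2846, 3369.7, 2297 and 2398 CPM in TdTomato+ libraries, against 1705, 2737, 1988 and 2029.6 CPM in TdTomato- libraries (log2 fold change 0.37, SE 0.10, adjusted p 0.0251). TdTomato+ was higher in 4 of 4 pairs although the fractions overlapped, and the call was lost without pair 2, 3 or 4. In 6W heart Col4a2 had 1488, 1383, 1516, 1672 and 2109 CPM in TdTomato+ libraries, against 1822, 2058, 1834, 1733 and 2623 CPM in TdTomato- libraries and was lower in TdTomato+ in 5 of 5 pairs (log2 fold change -0.30, SE 0.09, adjusted p 0.109). In P6 muscle it had 5183, 5193, 5018, 5769 and 4471 CPM in TdTomato+ libraries, against 5304, 5379, 5098, 4206 and 5408 CPM in TdTomato- libraries. In P1 lung it had 3786, 2129, 2461, 1966 and 1879 CPM in TdTomato+ libraries, against 3534, 2482, 2805, 1994 and 2139.8 CPM in TdTomato- libraries. The fractions overlapped in all 3. The 5 differences were not equal for either chain (adjusted p 6.12e-04 for Col4a2 and 0.017 for Col4a1).

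Type XV collagen, which bridges the basement membrane to the fibrils beneath it, was higher in TdTomato+ cells in 3 of the 5 comparisons. In P1 lung Col15a1 had 71.1, 53.7, 69.4, 51.5 and 51.5 CPM in TdTomato+ libraries, against 23.08, 44.5, 33.8, 31.7 and 27.3 CPM in TdTomato- libraries (log2 fold change 0.91, SE 0.13, adjusted p 5.77e-05). The fractions did not overlap. In 6W muscle it had 18.5, 47.5, 40.4 and 18.8 CPM in TdTomato+ libraries, against 7.66, 22.5, 29.3 and 11.5 CPM in TdTomato- libraries (log2 fold change 0.87, SE 0.16, adjusted p 0.0016). The values overlapped across pairs, but TdTomato+ was higher within all 4. In P1 heart Col15a1 had 119, 108, 114 and 139 CPM in TdTomato+ libraries, against 96.2, 88.5, 69 and 89 CPM in TdTomato- libraries (log2 fold change 0.49, SE 0.15, adjusted p 0.0258). The fractions did not overlap there, yet the call was lost when any 1 of the 4 pairs was left out. In P6 muscle Col15a1 had 316, 265, 244, 248 and 266 CPM in TdTomato+ libraries, against 369.7, 374, 313, 304 and 332 CPM in TdTomato- libraries, with TdTomato+ lower in 5 of 5 pairs and no call (log2 fold change -0.34, SE 0.13, adjusted p 0.376). In 6W heart it had 23.3, 28, 25.2, 11.7 and 14.8 CPM in TdTomato+ libraries, against 19.8, 22.3, 28.4, 14.6 and 13.9 CPM in TdTomato- libraries, with TdTomato+ higher in 3 of 5 pairs. The TdTomato+ difference in muscle changed with age, by 1.21 (SE 0.20, adjusted p 0.00326) on the log2 scale, and this was the 1 collagen called among 41 in that contrast, against 1.57% of all genes.

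Type XVIII collagen, whose C-terminal fragment is endostatin, was called in P1 lung, where Col18a1 had 947, 427, 472, 399 and 655 CPM in TdTomato+ libraries, against 622, 299, 287, 201 and 305 CPM in TdTomato- libraries (log2 fold change 0.78, SE 0.18, adjusted p 0.00506). TdTomato+ was higher in 5 of 5 pairs, and pair 1 was the highest in both fractions. In P6 muscle it had 575, 576, 497, 575 and 466 CPM in TdTomato+ libraries, against 920.3, 835, 727, 722 and 902 CPM in TdTomato- libraries. The fractions did not overlap, with TdTomato+ lower, but the adjusted p was 0.139. In 6W heart Col18a1 had 70.3, 97.1, 56.9, 110.04 and 94.1 CPM in TdTomato+ libraries, against 85.5, 102, 173, 129 and 165 CPM in TdTomato- libraries, lower in TdTomato+ in 5 of 5 pairs (log2 fold change -0.59, SE 0.18, adjusted p 0.141). In 6W muscle it had 33, 51.5, 51.4 and 23.5 CPM in TdTomato+ libraries, against 15.5, 73.6, 62.3 and 31.07 CPM in TdTomato- libraries. In P1 heart, its highest level, it had 1729, 1758, 1307 and 2208 CPM in TdTomato+ libraries, against 1632, 1564, 1378 and 1698 CPM in TdTomato- libraries. The fractions overlapped in these 3.

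Of the 4 minor type IV chains, which build specialised basement membranes such as those of lung alveoli and kidney glomeruli, Col4a3, Col4a4 and Col4a5 were lower in TdTomato+ cells of P1 heart. Col4a5 had 8, 5.27, 0.134 and 4.93 CPM in TdTomato+ libraries, against 19.5, 20.06, 11.9 and 17.6 CPM in TdTomato- libraries (log2 fold change -2.40, SE 0.62, adjusted p 0.0112). Col4a3 had 0.877, 0, 0 and 0.821 CPM in TdTomato+ libraries, against 0.62, 3.54, 3.6 and 7.27 CPM in TdTomato- libraries (log2 fold change -3.28, SE 0.89, adjusted p 0.0152), and Col4a4, its head-to-head neighbour, had 1.15, 0.127, 0 and 0.246 CPM in TdTomato+ libraries, against 1.47, 3.92, 3.08 and 3.01 CPM in TdTomato- libraries (log2 fold change -3.60, SE 1.07, adjusted p 0.026). The fractions did not overlap for Col4a5 and Col4a4, while the lowest TdTomato- value of Col4a3 fell among its TdTomato+ values. Col4a6 had 0, 0, 0.0897 and 0.123 CPM in TdTomato+ libraries, against 0, 0.943, 0.0434 and 0 CPM in TdTomato- libraries, and was not called (log2 fold change -0.47, SE 3.03, adjusted p 0.965). Calls were lost without pair 4 for Col4a5, without pair 3 or 4 for Col4a3 and without pair 3, 4 or 5 for Col4a4. The counting is not stated to use strand, so reads in the region where Col4a1 and Col4a2, Col4a3 and Col4a4, or Col4a5 and Col4a6 adjoin could be credited to either partner.

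The short-chain collagen Col8a1, whose product forms hexagonal lattices in the subendothelium and is made by endothelial and smooth muscle cells, was the collagen whose TdTomato+ difference changed sign most plainly. In P1 lung it had 5.64, 4, 8.59, 17 and 7.66 CPM in TdTomato+ libraries, against 2.6, 1.28, 0.986, 0.76 and 1.09 CPM in TdTomato- libraries (log2 fold change 2.59, SE 0.35, adjusted p 2.00e-05). In P1 heart it had 16.9, 14.7, 16.9 and 10.4 CPM in TdTomato+ libraries, against 7.32, 3.24, 8.9 and 9.77 CPM in TdTomato- libraries (log2 fold change 1.07, SE 0.33, adjusted p 0.0284). In both P1 organs every TdTomato+ value lay above every TdTomato- value. In 6W muscle Col8a1 had 47.8, 43.7, 31.09 and 48.9 CPM in TdTomato+ libraries, against 113, 222, 208 and 149 CPM in TdTomato- libraries (log2 fold change -1.98, SE 0.31, adjusted p 4.49e-04). Here every TdTomato+ value lay below every TdTomato- value. In P6 muscle it had 50.4, 46.5, 73.6, 53.4 and 61.6 CPM in TdTomato+ libraries, against 85.3, 78.4, 101, 105 and 105 CPM in TdTomato- libraries, again with all TdTomato+ values below, without a call (log2 fold change -0.74, SE 0.26, adjusted p 0.304). In 6W heart it had 77.3, 61.6, 68.1, 35.9 and 34.6 CPM in TdTomato+ libraries, against 101, 68.4, 116, 67.7 and 69.2 CPM in TdTomato- libraries, lower in TdTomato+ in 5 of 5 pairs (log2 fold change -0.64, SE 0.27, adjusted p 0.332). Equality of the 5 differences gave the smallest adjusted p of any collagen, 2.40e-06. The P1 heart call was lost without pair 2, 3 or 4, whereas the P1 lung and 6W muscle calls were kept without any 1 pair.

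Col13a1 encodes a transmembrane collagen of cell adhesion sites that is shed from the surface. It was higher in TdTomato+ cells of 6W muscle, with 10.2, 63, 46.3 and 42.2 CPM in TdTomato+ libraries, against 5.63, 18, 16.8 and 14.3 CPM in TdTomato- libraries (log2 fold change 1.44, SE 0.25, adjusted p 0.00112), and of P1 lung, with 31.12, 11.3, 30.3, 40.2 and 18.9 CPM in TdTomato+ libraries, against 14, 5.5, 11.8, 14.4 and 20.8 CPM in TdTomato- libraries (log2 fold change 0.99, SE 0.22, adjusted p 0.00441). The fractions overlapped in both, with TdTomato+ higher in 4 of 4 and 4 of 5 pairs. The 6W muscle call was lost with the RIN as a covariate (log2 fold change 1.07), and the P1 lung call without the block. In P1 heart it was lower, with 5.97, 11.05, 16.2 and 11.3 CPM in TdTomato+ libraries, against 16.7, 22.13, 24 and 28.7 CPM in TdTomato- libraries (log2 fold change -1.09, SE 0.25, adjusted p 0.00435), and the fractions did not overlap. In P6 muscle Col13a1 had 18.13, 28.8, 26.4, 17.8 and 22.3 CPM in TdTomato+ libraries, against 12.8, 13.4, 14.5, 12.7 and 11.5 CPM in TdTomato- libraries, without overlap and without a call by edgeR (log2 fold change 0.78, SE 0.22, adjusted p 0.106), while DESeq2 called it. In 6W heart it had 23.3, 22.2, 31.5, 14.5 and 6.94 CPM in TdTomato+ libraries, against 9.02, 10.7, 16.9, 7.15 and 9.04 CPM in TdTomato- libraries (log2 fold change 0.81, SE 0.22, adjusted p 0.0871). The 5 differences were unequal (adjusted p 1.42e-04).

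**Figure D3:**
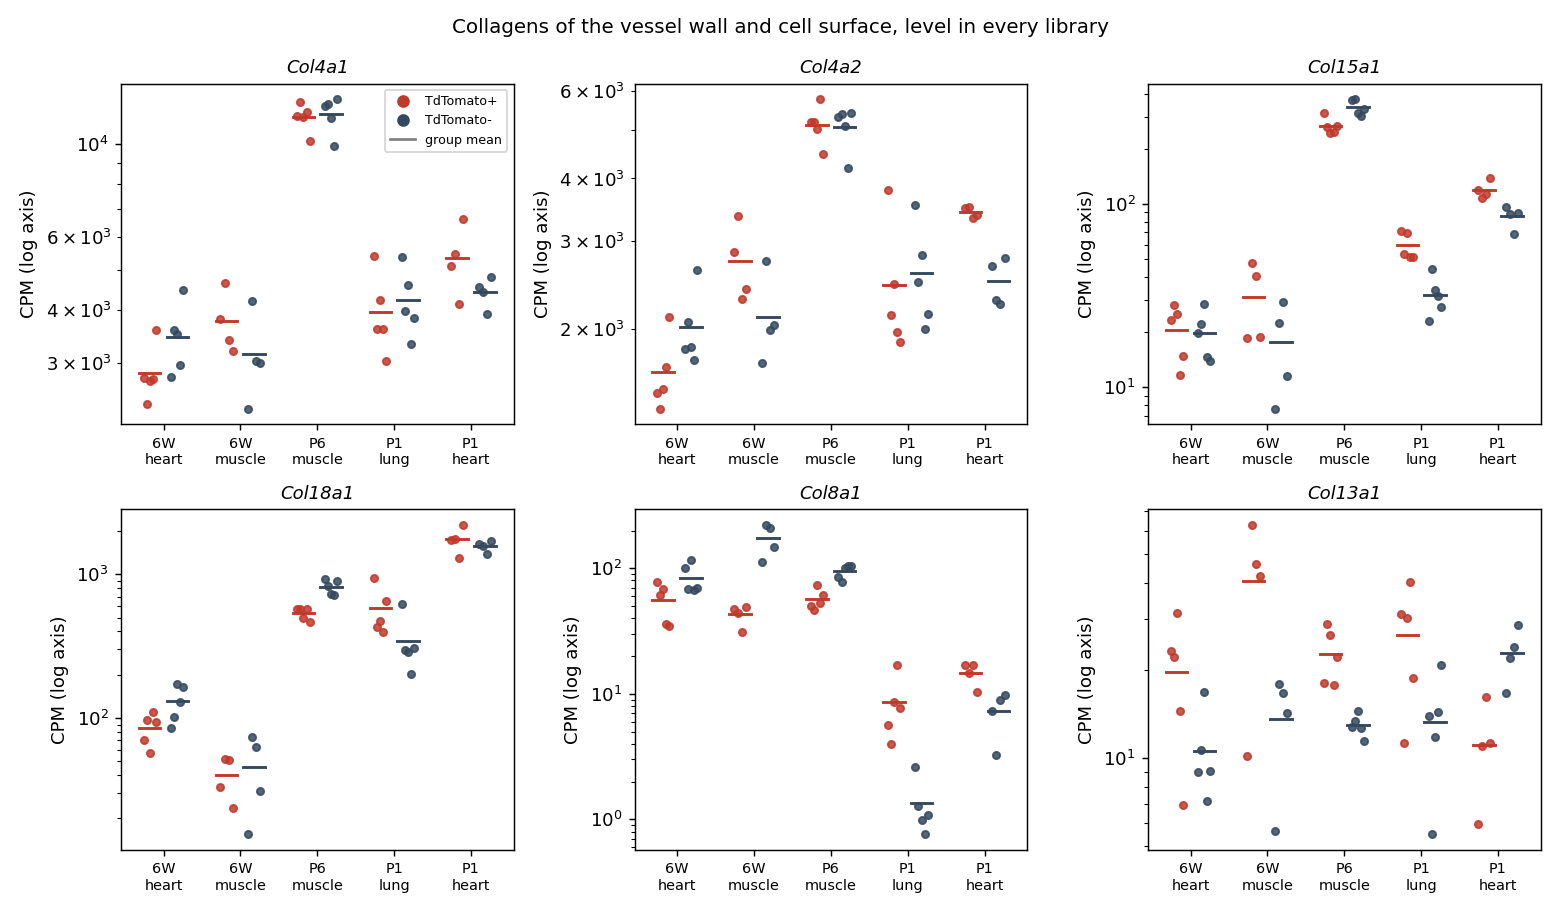
CPM per library, on a log axis, of Col4a1, Col4a2, Col15a1, Col18a1, Col8a1 and Col13a1 in TdTomato+ (left) and TdTomato- (right) libraries of each tissue and age. Col8a1 lies higher in TdTomato+ at P1 and lower in 6W muscle, and Col15a1 and Col18a1 average lower at 6W than at P1 in heart and than at P6 in muscle, in both fractions.

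Of the other transmembrane collagens, Col23a1 had 3.34, 7.13, 16.4 and 4.52 CPM in TdTomato+ libraries, against 73.1, 113, 102 and 78 CPM in TdTomato- libraries (log2 fold change -3.78, SE 0.44, adjusted p 5.72e-06) in P1 heart. Col25a1, whose product is a component of human amyloid plaques, had 0.603, 0.97, 1.34 and 0.328 CPM in TdTomato+ libraries, against 7.86, 13, 11.5 and 4.61 CPM in TdTomato- libraries (log2 fold change -3.57, SE 0.89, adjusted p 0.0103). Neither gene's fractions overlapped. The Col23a1 fall had the smallest adjusted p among the collagens of P1 heart and was called under each alternative and without any 1 pair, while that of Col25a1 was lost without pair 3. In the other 4 comparisons neither was called.

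In P1 heart, Col1a2, Col3a1, Col5a1, Col5a2 and Col11a2 were the fibrillar chains called, each lower in TdTomato+ than in TdTomato- cells. Col3a1, the homotrimeric fibril collagen of distensible tissues, had 2.47, 0.253, 1.61 and 116 CPM in TdTomato+ libraries, against 133, 169.9, 129.96 and 211 CPM in TdTomato- libraries (log2 fold change -5.0, SE 0.89, adjusted p 6.31e-04). Pairs 2, 3 and 4 held almost none, and pair 5 reached a level close to the lowest TdTomato- library. Col1a2, the α2 chain of type I collagen, had 5.92, 7.59, 11.3 and 48.9 CPM in TdTomato+ libraries, against 80.9, 117, 95 and 114 CPM in TdTomato- libraries (log2 fold change -2.97, SE 0.52, adjusted p 5.08e-04). Col1a1, the α1 chain, had 0, 0.169, 0.179 and 82 CPM in TdTomato+ libraries, against 12.8, 14.6, 2.6 and 34.2 CPM in TdTomato- libraries and was not called (log2 fold change -2.21, SE 0.97, adjusted p 0.137). Col1a2 did not overlap between fractions, whereas Col1a1 in pair 5 TdTomato+ exceeded all TdTomato- values.

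Type V collagen starts fibril assembly and sets fibril width. Col5a1, its α1 chain, had 16.9, 19, 17.8 and 19.7 CPM in TdTomato+ libraries, against 56.6, 82.5, 71.9 and 64 CPM in TdTomato- libraries (log2 fold change -1.89, SE 0.35, adjusted p 7.71e-04). Col5a2, its α2 chain, had 89.9, 81.5, 71 and 124 CPM in TdTomato+ libraries, against 202, 309, 274 and 237 CPM in TdTomato- libraries (log2 fold change -1.49, SE 0.26, adjusted p 4.55e-04). For both, every TdTomato+ value lay below every TdTomato- value, pair 5 included, and both calls held under each alternative and without any 1 pair. The α3 chain Col5a3 had 2.03, 2.15, 0 and 1.4 CPM in TdTomato+ libraries, against 1.86, 1.02, 0.477 and 1.45 CPM in TdTomato- libraries, and was not called (log2 fold change -0.01, SE 0.55, adjusted p 1). Col11a2, a minor fibrillar chain chiefly of cartilage, was also called lower (log2 fold change -4.19, SE 0.97, adjusted p 0.00572), at 0 to 0.698 CPM against 1.7 to 5.05 CPM. In all, 5 of the 11 fibrillar chains were called, each lower, with a class median of -1.89.

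Type VI collagen, the beaded filament around cells, was lower in the same comparison for 3 of 4 chains. Col6a1 had 0.0548, 0.548, 14.6 and 11.08 CPM in TdTomato+ libraries, against 24.4, 42.7, 25.3 and 59.7 CPM in TdTomato- libraries (log2 fold change -3.27, SE 0.73, adjusted p 0.00402). Col6a2 had 0, 3.67, 4.98 and 8.78 CPM in TdTomato+ libraries, against 21.2, 47.7, 22.8 and 41.2 CPM in TdTomato- libraries (log2 fold change -3.24, SE 0.57, adjusted p 5.10e-04). Col6a3 had 0.658, 0, 0 and 1.31 CPM in TdTomato+ libraries, against 17.3, 24.8, 9.46 and 14 CPM in TdTomato- libraries (log2 fold change -5.48, SE 0.86, adjusted p 1.59e-04). No chain overlapped between fractions, and Col6a3 was at or near 0 in all 4 TdTomato+ libraries. The fibril-associated chain Col14a1 (undulin) had 3.78, 0.422, 2.47 and 4.35 CPM in TdTomato+ libraries, against 11.5, 17.4, 14.2 and 17.8 CPM in TdTomato- libraries (log2 fold change -2.68, SE 0.85, adjusted p 0.0359), a call lost without pair 2, 3 or 4. Col26a1 had 0, 0, 0 and 2.5 CPM in TdTomato+ libraries, against 9.18, 15.9, 17.8 and 8.76 CPM in TdTomato- libraries (log2 fold change -6.90, SE 1.27, adjusted p 0.00127), with no read in 3 of 4 TdTomato+ libraries. Col9a2, a chain of cartilage type IX collagen, was the remaining gene called lower (log2 fold change -5.06, SE 1.21, adjusted p 0.00774), and its call was lost without pair 3.

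In P1 heart, fibroblast and endocardial markers were lower along with the fibrillar and type VI genes, while markers of some other cells were not. Of 14 fibroblast markers, a list without collagens, 7 were called and all 7 were lower, and their summed level was 62.9 to 218 CPM in TdTomato+ libraries and 432 to 718 CPM in TdTomato- libraries, with none of the 14 at 0. The highest TdTomato+ sum was again that of pair 5. All 7 endocardial markers were lower, at a summed 198 to 329.5 CPM against 724 to 1182 CPM. Of 12 pericyte and smooth muscle markers 1 was called (Pdgfrb, lower), at 29.5 to 90.3 CPM against 49.4 to 78.3 CPM. The 4 mesothelial markers summed higher in TdTomato+ libraries, at 82.6 to 103 CPM against 54.2 to 82.2 CPM. The median sum of the 6 leukocyte markers was 7.11 CPM against 1.58 CPM, with overlapping ranges. The RIN was lower in the TdTomato+ library of 3 of 4 pairs (mean difference -1.85, SD 2.09). Pairs 2, 3, 4 and 5 had TdTomato+ RINs of 7.5, 7.1, 3.6 and 8.5, and their TdTomato- partners 9.2, 8, 8.4 and 8.5. The log2 ratio of the fibrillar sum in these pairs was -2.11, -2.61, -2.27 and -0.68. Pair 5, with equal RINs, had the smallest fall, but pair 4, with the lowest RIN, did not have the largest. The part of these markers and of the RIN in the result was not tested. The number of called collagens was 12 with the RIN as a covariate, 12 with P1 heart fitted alone, 7 with P1 heart fitted alone and no block (added after seeing the data), and 13 without pair 3. With the RIN as a covariate Col8a1, Col15a1, Col4a3, Col4a4, Col4a5, Col11a2, Col14a1, Col25a1 and Col9a2 were not called, and Col4a1 (log2 fold change 0.43) was. Without the pair as a block 15 were called, and Col3a1 (log2 fold change -2.41), Col4a2 (0.46), Col15a1 (0.49), Col8a1 (1.01) and Col13a1 (-1.04) were not. Shares of all genes under these other fits are not given here, so whether all genes lost calls alike cannot be told from these counts.

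In the other 4 comparisons 8 to 10 of the 11 fibrillar chains had a positive log2 fold change, and 2 calls were made in all. In 6W heart Col1a2 had 69.8, 123, 55.8, 23.08 and 33.06 CPM in TdTomato+ libraries, against 12.8, 12.5, 9.53, 14.6 and 21.7 CPM in TdTomato- libraries (log2 fold change 1.93, SE 0.45, adjusted p 0.0395). All TdTomato+ values lay above all TdTomato- values, and the call was lost without pair 1, 2 or 4, without the block (log2 fold change 2.1) and with the RIN as a covariate (log2 fold change 1.89). Col1a1 had 39.3, 81.3, 32, 10.4 and 9.44 CPM in TdTomato+ libraries, against 6.84, 13.2, 3.96, 8.02 and 4.79 CPM in TdTomato- libraries (log2 fold change 1.98, SE 0.66, adjusted p 0.172). Col3a1 had 95.6, 198, 57.2, 32.9 and 41.4 CPM in TdTomato+ libraries, against 17.5, 26.4, 8.5, 42.4 and 37.4 CPM in TdTomato- libraries (log2 fold change 1.59, SE 0.64, adjusted p 0.3). The high TdTomato+ values were those of pairs 1, 2 and 4. The type V chains Col5a1, with 13.13, 27.5, 10.08, 8.37 and 13 CPM in TdTomato+ libraries, against 14.4, 3.81, 0.689, 6.69 and 10.5 CPM in TdTomato- libraries, and Col5a2, with 17.8, 56.3, 26.3, 24.07 and 22 CPM in TdTomato+ libraries, against 13.4, 19.4, 21.8, 29.6 and 28.8 CPM in TdTomato- libraries, were not called, and pair 2 was again highest. Type VI chains were not called either: Col6a1 had 33, 68.8, 13.7, 8.48 and 14.5 CPM in TdTomato+ libraries, against 5.64, 6.35, 4.99, 13.4 and 14.8 CPM in TdTomato- libraries. Col6a2 had 10.9, 41.6, 9.04, 8.43 and 7.4 CPM in TdTomato+ libraries, against 6.2, 8.62, 2.76, 7.03 and 10.5 CPM in TdTomato- libraries.

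Within 6W heart, the fibrillar sums differed between the sequencing runs. In pairs 1, 2 and 4 (run 176) the log2 ratio of the fibrillar sum, TdTomato+ over TdTomato-, was 1.95, 2.65 and 2.08, and in pairs 5 and 6 (run 190) it was -0.05 and 0.22. The ratio of the summed fibroblast markers was 1.81, 2.49 and 1.02 in the first 3 and -0.02 and 0.46 in the other 2, and that of pericyte and smooth muscle markers 2.03, 3.77 and 3.96, against -0.30 and 1.37. TdTomato+ RINs were 7.6, 7.7 and 7.4, against 9.4 and 9.3. Over all 5 pairs 4 of 14 fibroblast markers (Mfap4, Postn, Fbln1 and Fmod) and 4 of 12 pericyte and smooth muscle markers were called, all higher, with summed levels of 719 to 2918 CPM in TdTomato+, against 341 to 739 CPM in TdTomato- libraries, for fibroblasts and of 286 to 1837 CPM against 78.9 to 356 CPM for mural cells. None of these markers was at 0, and their part in the result was not tested. Without pairs 5 and 6, 3 collagens were called. The share of all genes in that fit is not given here, so this count is not read as particular to collagens.

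In 6W muscle no fibrillar chain was called. Col1a1 had 22.2, 23.2, 32 and 27.5 CPM in TdTomato+ libraries, against 7.17, 4.84, 18.5 and 2 CPM in TdTomato- libraries, without overlap between fractions (log2 fold change 1.95, SE 0.72, adjusted p 0.133). Col1a2 had 29.8, 29.9, 42 and 42.7 CPM in TdTomato+ libraries, against 14.7, 15.6, 47.2 and 9.39 CPM in TdTomato- libraries. Col3a1 had 194, 152, 333 and 94.9 CPM in TdTomato+ libraries, against 219, 72.7, 142 and 17.9 CPM in TdTomato- libraries. Both overlapped, with TdTomato+ higher in 3 of 4 pairs. Col5a1 had 29.4, 20.3, 48.8 and 10.9 CPM in TdTomato+ libraries, against 19.8, 7.97, 18.2 and 4.11 CPM in TdTomato- libraries and was higher in 4 of 4 pairs (log2 fold change 1.17, SE 0.36, adjusted p 0.0562), and Col5a2 had 13.14, 10.2, 22.8 and 15.7 CPM in TdTomato+ libraries, against 13.3, 19.5, 18.8 and 14.4 CPM in TdTomato- libraries. The type VI chains overlapped, Col6a1 with 29.2, 24.8, 37.9 and 14.9 CPM in TdTomato+ libraries, against 35.07, 13.7, 19.3 and 9.18 CPM in TdTomato- libraries, and Col6a2 with 12.9, 7.47, 14.5 and 3.85 CPM in TdTomato+ libraries, against 13.9, 4.72, 10.9 and 0.949 CPM in TdTomato- libraries. The summed fibroblast markers were 233 to 424 CPM in TdTomato+ and 123 to 472 CPM in TdTomato- libraries, and no fibroblast or mural marker was called.

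In P6 muscle the fibrillar genes stood high in both fractions. Col1a1 had 243, 412, 302, 694 and 308 CPM in TdTomato+ libraries, against 252, 206, 714, 382 and 147 CPM in TdTomato- libraries. Col1a2 had 163, 263, 202, 453 and 206 CPM in TdTomato+ libraries, against 178, 144, 389, 261 and 114 CPM in TdTomato- libraries. Col3a1 had 373, 756, 525, 625 and 436 CPM in TdTomato+ libraries, against 328, 376, 463, 699 and 318 CPM in TdTomato- libraries. The fractions overlapped for all 3. The highest libraries were TdTomato+ pair 4 and TdTomato- pair 3 for both type I chains, and TdTomato+ pair 2 and TdTomato- pair 4 for Col3a1. Col5a1 had 30.2, 30.4, 40.1, 70.04 and 36.8 CPM in TdTomato+ libraries, against 25.13, 24.7, 32.2, 39 and 22 CPM in TdTomato- libraries and was higher in TdTomato+ in 5 of 5 pairs (log2 fold change 0.49, SE 0.30, adjusted p 0.755). Col5a2 had 49.2, 64.1, 47.6, 54.4 and 51.6 CPM in TdTomato+ libraries, against 113, 75.6, 76.2, 86.2 and 97.2 CPM in TdTomato- libraries, lower in TdTomato+ in 5 of 5 pairs without overlap (log2 fold change -0.74, SE 0.23, adjusted p 0.173). The 2 type V chains lay in opposite directions, and neither was called. Col6a1 had 32.4, 47.4, 44.1, 61.1 and 52.1 CPM in TdTomato+ libraries, against 34.7, 43.6, 34.2, 46.2 and 29 CPM in TdTomato- libraries, and Col6a2 had 21.6, 44.2, 29.9, 48.2 and 30.3 CPM in TdTomato+ libraries, against 23.9, 22.5, 27.3, 31.4 and 20.06 CPM in TdTomato- libraries. Fibroblast markers summed to 259.6 to 338 CPM in TdTomato+ and 198 to 381 CPM in TdTomato- libraries, and no fibroblast or mural marker was called.

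In P1 lung the fibrillar genes varied widely between TdTomato+ libraries. Col1a1 had 74.5, 55.2, 514, 826 and 247 CPM in TdTomato+ libraries, against 146, 39.6, 154, 199 and 93.7 CPM in TdTomato- libraries. Col1a2 had 78.1, 71, 326, 544 and 155 CPM in TdTomato+ libraries, against 132, 41.8, 109, 144 and 81.2 CPM in TdTomato- libraries. Col3a1 had 178, 166, 563, 1007 and 277 CPM in TdTomato+ libraries, against 278, 107, 223, 299.5 and 189 CPM in TdTomato- libraries. Pair 7 was highest in TdTomato+ for each, TdTomato+ was higher in 4 of 5 pairs, and none was called. Col5a1 had 102, 93.096, 104, 177 and 71.4 CPM in TdTomato+ libraries, against 90.4, 69.6, 91.5, 81.2 and 69.4 CPM in TdTomato- libraries, higher in TdTomato+ in 5 of 5 pairs (log2 fold change 0.39, SE 0.30, adjusted p 0.492). Col5a2 had 331, 477, 193, 190.04 and 208 CPM in TdTomato+ libraries, against 219, 257, 232, 215 and 286 CPM in TdTomato- libraries. Type V did not stand apart. Col6a1 had 34.4, 23.7, 151, 267 and 255 CPM in TdTomato+ libraries, against 56.8, 23.9, 64, 83 and 86.7 CPM in TdTomato- libraries. Col6a2 had 21.9, 15.9, 122, 170.3 and 99.96 CPM in TdTomato+ libraries, against 46.4, 17.7, 48.3, 47.1 and 39.2 CPM in TdTomato- libraries. Pairs 6, 7 and 8 had the higher TdTomato+ values.

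The fibrillar gene called in P1 lung was Col2a1, the cartilage collagen, with 8.17, 2.69, 1.16, 30.05 and 0 CPM in TdTomato+ libraries, against 0.799, 0.0413, 0.0857, 1.12 and 0 CPM in TdTomato- libraries (log2 fold change 4.25, SE 0.96, adjusted p 0.0129). The TdTomato- values were at or near 0, pair 7 TdTomato+ held the highest value, and the call was lost without pair 7. Col28a1, a collagen with von Willebrand factor A domains, was also higher, with 1.39, 1.15, 2.64, 3.56 and 1.33 CPM in TdTomato+ libraries, against 0.0399, 0.331, 0.214, 0.991 and 0 CPM in TdTomato- libraries (log2 fold change 2.84, SE 0.41, adjusted p 4.75e-05), without overlap. Of the 14 fibroblast markers 1 (Mfap5) was called higher, at a summed 220.0 to 1379.8 CPM in TdTomato+ and 235 to 730.4 CPM in TdTomato- libraries. No pericyte or smooth muscle marker was called, at 82.2 to 771 CPM against 68.1 to 310.2 CPM. Of 10 lung epithelial markers 3 were called (Sftpa1 and Sftpb higher, Hopx lower), at 1449.9 to 62832 CPM against 2019.9 to 8186 CPM, and of 10 endothelial markers 6 were called, all lower, at 9516 to 13512 CPM against 14783 to 16675 CPM. No leukocyte marker of 6 was called, at a summed 93.096 to 3405 CPM (median 1642) in TdTomato+ and 77.1 to 501 CPM (median 373) in TdTomato- libraries, most of it Lyz2, and none was at 0. The 3 cartilage markers measured were not called, at 28.6 to 39.2 CPM against 45.1 to 56 CPM, and of 4 mesothelial markers Wt1 was called higher. The part of these in the P1 lung differences was not tested. Of the remaining marker calls between fractions, the cartilage marker Hapln1 and the cardiomyocyte marker Myl7 were lower in P1 heart, the cartilage marker Sox9 was higher in 6W heart, the skeletal muscle markers Acta1 and Ckm were lower in 6W muscle, and no Schwann cell marker was called.

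**Figure D4:**
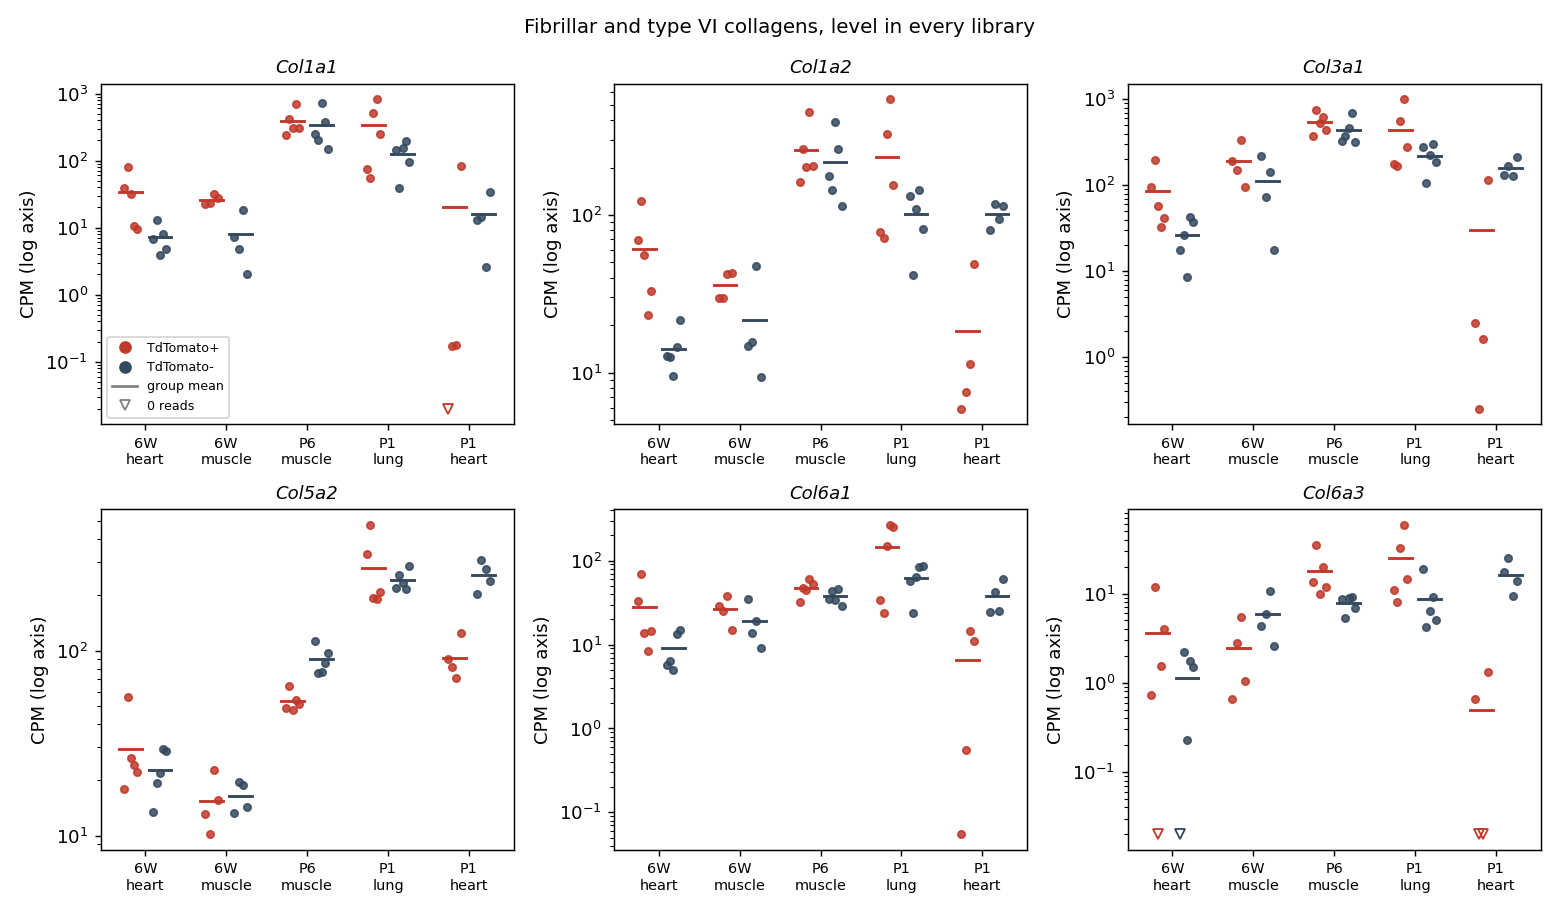
CPM per library, on a log axis, of Col1a1, Col1a2, Col3a1, Col5a2, Col6a1 and Col6a3 in TdTomato+ (left) and TdTomato- (right) libraries; open triangles are libraries with no read. In P1 heart the TdTomato+ points of Col3a1 and Col6a3 lie far below the TdTomato- points, with pair 5 nearest to them for Col3a1.

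Pair by pair, the fibrillar ratio and the fibroblast marker ratio mostly shared their sign. The fibrillar sum and the sum of the 14 fibroblast markers moved in the same direction in 18 of 23 pairs, in 5 of 5 6W heart, 2 of 4 6W muscle, 3 of 5 P6 muscle, 4 of 5 P1 lung and 4 of 4 P1 heart pairs. Fibrillar and type VI sums did so in 19 of 23 pairs. Fibrillar and basement membrane sums did so in 9 of 23 pairs and in none of the 4 P1 heart pairs. These are descriptions of pairs that share a library for both sums, and were not tested.

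**Figure D5:**
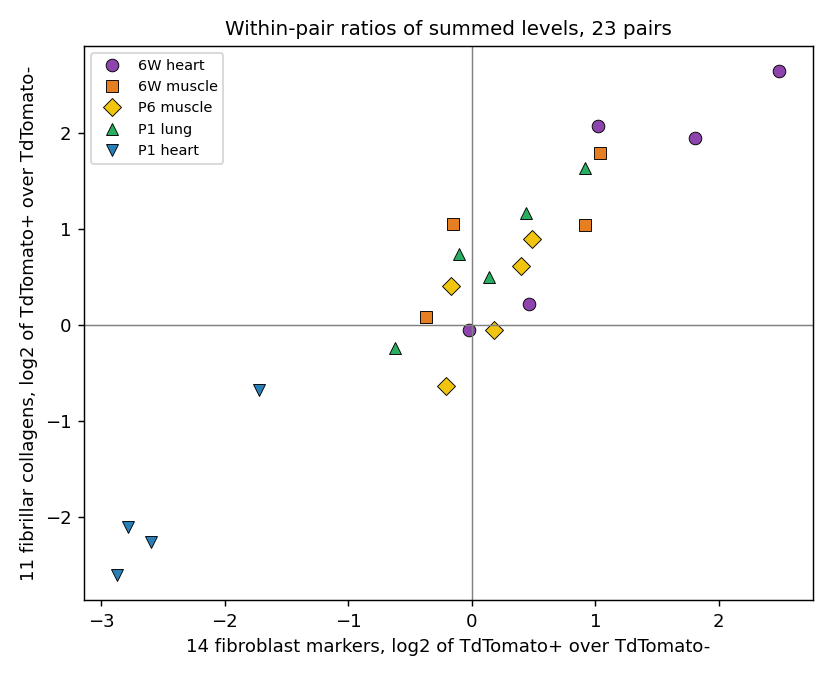
Log2 ratio, TdTomato+ over TdTomato-, of the summed 14 fibroblast markers (x axis) and of the summed 11 fibrillar collagens (y axis) in each of the 23 pairs, coloured by tissue and age. The P1 heart pairs lie at the lower left, and 6W heart pairs 1, 2 and 4 lie at the upper right.

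The TdTomato+ difference of 18 collagens changed between P1 and 6W heart, against 8.05% of all genes: 15 had a more positive log2 fold change at 6W, against 4.26% of all genes, and 3 a more negative one, against 3.79%. Library totals alone moved the all-gene median of this difference to 0.17. The largest shift among fibrillar chains was that of Col3a1, 6.59 (SE 1.1, adjusted p 4.50e-04), followed by Col1a2, 4.89 (SE 0.69, adjusted p 6.88e-05), Col11a2, 4.41 (SE 1.20, adjusted p 0.0237), and Col1a1, 4.19 (SE 1.16, adjusted p 0.0252). Col5a1 shifted by 3.07 (SE 0.49, adjusted p 2.68e-04) and Col5a2 by 1.8 (SE 0.35, adjusted p 0.00181). All 3 type VI chains called at P1 shifted: Col6a3 by 6.81 (SE 1.14, adjusted p 4.63e-04), Col6a1 by 4.63 (SE 0.95, adjusted p 0.00285) and Col6a2 by 4.15 (SE 0.74, adjusted p 7.86e-04). The 3 genes with a more negative difference at 6W were Col8a1, -1.71 (SE 0.42, adjusted p 0.0118), Col4a2, -0.77 (SE 0.13, adjusted p 5.26e-04), and Col4a1, -0.53 (SE 0.14, adjusted p 0.0164). Of the 14 fibroblast markers 8 shifted as well, all more positive at 6W, and 6 of 7 endocardial markers did so, and their part was not tested. The call of Col4a1 was lost without 6W heart pair 2 or P1 heart pair 3, and under library totals alone (-0.37), and that of Col1a1 without any 1 of 6W heart pairs 1, 2 and 4 or P1 heart pairs 2, 3 and 4.

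The vascular basement membrane collagens types XV and XVIII were lower at 6W than at P1 (heart) or P6 (muscle) in both fractions. Col18a1 averaged 85.7 ± 22 CPM (SD, n = 5) in 6W heart TdTomato+ cells, against 1750.4 ± 368 CPM (SD, n = 4) at P1 (log2 fold change -4.35, SE 0.27, adjusted p 7.38e-11). In TdTomato- heart cells its log2 fold change was -3.58 (SE 0.34, adjusted p 8.35e-09). In muscle, 6W against P6, it was -3.75 (SE 0.29, adjusted p 2.1e-09) in TdTomato+ and -4.17 (SE 0.38, adjusted p 7.72e-09) in TdTomato- cells. The libraries of the 2 ages did not overlap in any of these. Col15a1 averaged 17.7 ± 9.9 CPM (SD, n = 4) in 6W muscle TdTomato- cells, against 339 ± 32 CPM (SD, n = 5) at P6 (log2 fold change -4.26, SE 0.31, adjusted p 2.89e-10). Its log2 fold change was -3.10 (SE 0.28, adjusted p 1.87e-08) in TdTomato+ muscle, -2.53 (SE 0.26, adjusted p 6.04e-08) in TdTomato+ heart and -2.11 (SE 0.27, adjusted p 7.91e-07) in TdTomato- heart cells.

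The Col4a1-Col4a2 pair was also lower at 6W in 3 of 4 comparisons. Col4a1 averaged 3765 ± 638 CPM (SD, n = 4) in 6W muscle TdTomato+ cells, against 11583 ± 882 CPM (SD, n = 5) at P6 (log2 fold change -1.62, SE 0.17, adjusted p 1.33e-07), with -1.91 (SE 0.17, adjusted p 3.42e-09) in TdTomato- cells. In heart it was lower in TdTomato+ cells (log2 fold change -0.91, SE 0.16, adjusted p 7.71e-05) and was not called in TdTomato- cells (log2 fold change -0.35, SE 0.16, adjusted p 0.063). Col4a2 had log2 fold changes of -0.91 (SE 0.17, adjusted p 2.71e-04) and -1.26 (SE 0.16, adjusted p 1.15e-06) in TdTomato+ and TdTomato- muscle and -1.07 (SE 0.17, adjusted p 2.51e-05) in TdTomato+ heart. The ratio of Col4a1 to Col4a2 per gene length was 1.34 ± 0.065 in TdTomato+ and 1.43 ± 0.075 in TdTomato- 6W muscle (SD, n = 4 each), against 2.2 ± 0.13 and 2.25 ± 0.039 in P6 muscle (n = 5 each). Over all libraries this ratio ran from 1.2 to 2.36.

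Some other chains were higher at 6W in some of the 4 comparisons. Col8a1 was higher at 6W in heart, with 84.4 ± 23 CPM (SD, n = 5) in TdTomato- cells, against 7.31 ± 2.9 CPM (SD, n = 4) at P1 (log2 fold change 3.53, SE 0.31, adjusted p 2.14e-09), and with 1.92 (SE 0.32, adjusted p 5.12e-05) in TdTomato+ cells. In TdTomato- muscle it was higher too (log2 fold change 0.87, SE 0.26, adjusted p 0.0107), while in TdTomato+ muscle it was not called (log2 fold change -0.41, SE 0.31, adjusted p 0.318). The minor type IV chain Col4a3 was higher at 6W in muscle, by 3.88 (SE 0.80, adjusted p 5.97e-04) in TdTomato+ and 3.94 (SE 0.61, adjusted p 1.46e-05) in TdTomato- cells, and by 3.58 (SE 0.86, adjusted p 0.00177) in TdTomato+ heart cells, and was not called in TdTomato- heart cells (log2 fold change -0.52, SE 0.51, adjusted p 0.422). Col5a3, a type V chain, was higher in heart, by 3.09 (SE 0.85, adjusted p 0.00551) and 2.1 (SE 0.63, adjusted p 0.0083) in TdTomato+ and TdTomato- cells. The levels were low, as with 7.09 ± 3 CPM (SD, n = 4) of Col4a3 in 6W muscle TdTomato+ cells.

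Of the 11 fibrillar chains, 4 in TdTomato+ and 6 in TdTomato- muscle cells were lower at 6W and none higher. These were 36.4 and 54.5% of the chains, against 34 and 42.5% of all genes called (17.6 and 21.5% lower). In heart, 3 were higher and 2 lower at 6W in TdTomato+ cells, and 1 was higher and 5 lower in TdTomato- cells. The shares called there were 45.5 and 54.5% of the chains, against 43 and 49.3% of all genes. In muscle Col1a1 changed by -3.90 (SE 1.24, adjusted p 0.0182) in TdTomato+ and -5.38 (SE 0.72, adjusted p 2.36e-06) in TdTomato- cells, Col1a2 by -2.83 (SE 0.66, adjusted p 0.00188) and -3.31 (SE 0.45, adjusted p 2.43e-06), and Col5a2 by -1.79 (SE 0.32, adjusted p 1.66e-04) and -2.44 (SE 0.20, adjusted p 1.58e-09), TdTomato+ first in each. Col3a1 was called in TdTomato- muscle (log2 fold change -1.95, SE 0.49, adjusted p 0.00265). In heart Col5a2 was lower in both fractions, with a log2 fold change of -1.64 (SE 0.31, adjusted p 1.55e-04) in TdTomato+ and -3.50 (SE 0.20, adjusted p 1.34e-12) in TdTomato- cells. Col1a2 was higher at 6W in TdTomato+ heart (log2 fold change 1.72, SE 0.63, adjusted p 0.0319) and lower in TdTomato- heart (log2 fold change -2.84, SE 0.42, adjusted p 5.15e-06). The TdTomato+ call was lost without 6W heart pair 1 or 2 or P1 heart pair 2, 3 or 4. Col3a1 was lower in TdTomato- heart (log2 fold change -2.61, SE 0.49, adjusted p 9.96e-05), as were Col6a1 (log2 fold change -2.08, SE 0.40, adjusted p 1.37e-04), Col6a2 (log2 fold change -2.24, SE 0.46, adjusted p 2.75e-04) and Col6a3 (log2 fold change -3.84, SE 0.64, adjusted p 2.78e-05).

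In numbers, 17 of 40 collagens tested differed between 6W and P1 in TdTomato+ heart cells (10 higher, 7 lower, against 43% of all genes, 21.6% higher and 21.4% lower) and 22 of 41 in TdTomato- heart cells (3 higher, 19 lower, against 49.3%, 24% higher and 25.3% lower). In muscle 14 of 40 did so in TdTomato+ cells (2 higher, 12 lower, against 34%, 16.3% higher and 17.6% lower) and 21 of 41 in TdTomato- cells (3 higher, 18 lower, against 42.5%, 21% higher and 21.5% lower). The shares lay near those of all genes, while the medians of the collagens were 0.96, -1.12, -0.92 and -1.18, or 1.08 and -1.32 in the first 2 with genes at 0 set at their bound. Col26a1, at 0 in all 6W heart TdTomato- libraries, was at least 408-fold lower there than at P1. Fibroblast markers were called in 9 of 14 (all higher at 6W) in TdTomato+ heart and 8 (5 higher, 3 lower) in TdTomato- heart, and in 5 (1 higher, 4 lower) and 8 (1 higher, 7 lower) in TdTomato+ and TdTomato- muscle. Library totals alone moved the all-gene median to -0.27 in TdTomato- heart and to -0.14 and -0.13 in TdTomato+ and TdTomato- muscle. Pericyte and smooth muscle markers were called in 10 of 12 (all higher) and 9 (8 higher, 1 lower) in TdTomato+ and TdTomato- heart and in 1 (lower) and 3 (2 higher, 1 lower) in muscle, and their part was not tested.

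At P1, lung TdTomato+ cells held more fibrillar, type VI and minor type IV collagen RNA than heart TdTomato+ cells. Of 40 collagens tested 26 differed, 21 higher and 5 lower in lung, against 34.5% of all genes, and the median log2 fold change was 2.60 (2.62 with bounds). All 8 basement membrane chains were called: Col4a3 (log2 fold change 6.27, SE 0.95, adjusted p 2.68e-05), Col4a4 (log2 fold change 5.04, SE 1.15, adjusted p 0.00189), Col4a5 (log2 fold change 2.13, SE 0.68, adjusted p 0.0178) and Col4a6 were higher in lung, and Col18a1 (log2 fold change -1.59, SE 0.25, adjusted p 4.25e-05), Col15a1 (log2 fold change -1.01, SE 0.25, adjusted p 0.00326), Col4a1 and Col4a2 were lower. Col4a3 had 10.7, 13.4, 27.5, 77.9 and 32.9 CPM in the lung libraries, against 0.877, 0, 0 and 0.821 CPM in the heart libraries. The calls of Col4a1 and Col4a2 were kept in 2 and 3 of the 9 fits without 1 pair. Among fibrillar chains 7 were called, all higher in lung, including Col1a2 (log2 fold change 3.67, SE 0.69, adjusted p 3.02e-04), Col5a1 (log2 fold change 2.58, SE 0.39, adjusted p 2.84e-05) and Col3a1 (log2 fold change 3.86, SE 1.08, adjusted p 0.00827), and all 4 type VI chains were higher, with Col6a6 resting on reads of a single lung library.

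In TdTomato- cells 13 of 41 collagens differed between P1 lung and P1 heart, 6 higher and 7 lower in lung, against 36.9% of all genes, with a median of 0.00. Col4a3 was higher in lung (log2 fold change 3.19, SE 0.55, adjusted p 7.78e-05), with 47.2, 19.9, 30.2, 42.3 and 31.7 CPM in lung libraries, against 0.62, 3.54, 3.6 and 7.27 CPM in heart libraries, without overlap. Col1a1 was higher as well (log2 fold change 2.98, SE 0.64, adjusted p 7.44e-04), whereas Col8a1 (log2 fold change -2.44, SE 0.33, adjusted p 2.53e-06) and Col18a1 (log2 fold change -2.19, SE 0.33, adjusted p 1.13e-05) were lower. No type VI chain was called. All 10 lung epithelial markers were higher in lung in both fractions, and 8 fibroblast markers (7 higher, 1 lower) and 10 mural markers (9 higher, 1 lower) were called in TdTomato+ cells, and 12 (6 and 6) and 8 (6 and 2) in TdTomato- cells. Their part was not tested.

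Between 6W heart and 6W muscle the share of collagens called in either direction lay near that of all genes, and more of the calls were lower than higher in heart. The test called 8 of 40 in TdTomato+ cells (2 higher, 6 lower in heart, against 15% of all genes, 7.47% higher and 7.58% lower) and 12 of 41 in TdTomato- cells (2 higher, 10 lower, against 21.9%, 10.5% higher and 11.4% lower), with a median of -0.14 in each (-0.21 with bounds in TdTomato- cells). Col18a1 was higher in heart in both, by 1.11 (SE 0.26, adjusted p 0.00501) in TdTomato+ and 1.52 (SE 0.34, adjusted p 0.00222) in TdTomato- cells. Col4a2 was lower in heart TdTomato+ cells (log2 fold change -0.74, SE 0.17, adjusted p 0.00445), and Col8a1 (log2 fold change -1.04, SE 0.26, adjusted p 0.00684), Col3a1 (log2 fold change -2.1, SE 0.48, adjusted p 0.00292) and Col5a3 (log2 fold change -2.23, SE 0.58, adjusted p 0.00784) were lower in heart TdTomato- cells. Within run 190 alone the TdTomato- count was 5, and Col3a1 (log2 fold change -1.48), Col5a3 (-1.84) and Col18a1 (1.71) were not called, nor was Col4a2 in TdTomato+ cells (-0.51). Fibroblast markers were called in 9 of 14 in each fraction, all higher in heart in TdTomato+ cells, and 5 higher and 4 lower in TdTomato- cells. Their part was not tested.

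The enzymes, receptors and partners of collagens were examined in 5 lists. Their counts stand against 14.7% of all genes called in P1 heart, 9.78% in P1 lung, 5.23% in 6W muscle, 0.977% in P6 muscle and 0.874% in 6W heart. Of 18 genes of chain modification and folding, 4 were lower in TdTomato+ cells of P1 heart, among them the prolyl hydroxylase subunit P4ha3, -4.86 (SE 0.88, adjusted p 0.00174), the lysyl hydroxylase Plod3, -0.28 (SE 0.08, adjusted p 0.0271), and the prolyl 3-hydroxylase P3h1, -0.36 (SE 0.11, adjusted p 0.0293). In P1 lung 3 were called: the collagen chaperone Serpinh1 (HSP47) fell, -0.52 (SE 0.09, adjusted p 5.17e-04), as did the galactosyltransferase Colgalt2, -1.13 (SE 0.23, adjusted p 0.00155), and P3h2 rose, 1.53 (SE 0.39, adjusted p 0.0112). In 6W muscle Ppib fell, -0.30 (SE 0.08, adjusted p 0.0307), and none was called in 6W heart or P6 muscle. Of 13 genes of propeptide cleavage and cross-linking, 6 were lower in P1 heart, among them the proteinase Tll1, -1.54 (SE 0.27, adjusted p 6.11e-04), lysyl oxidase Lox, -1.89 (SE 0.37, adjusted p 0.00139), and Bmp1, which removes C-propeptides, -0.33 (SE 0.08, adjusted p 0.0075). Lox was also lower in TdTomato+ cells of P6 muscle, -1.48 (SE 0.32, adjusted p 0.0193), and 6W muscle, -1.78 (SE 0.38, adjusted p 0.00606), where Tll1 was higher, 1.21 (SE 0.26, adjusted p 0.00596). In P1 lung Pcolce, an enhancer of C-propeptide removal, was higher, 0.87 (SE 0.16, adjusted p 8.47e-04), and in 6W heart the N-propeptidase Adamts14 was, at 0.881 to 2.84 CPM against 0 to 0.0454 CPM.

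Of 8 collagen receptors, the discoidin domain receptor Ddr1 was lower in P1 heart, -3.67 (SE 0.91, adjusted p 0.00854), and none was called elsewhere between fractions. Of 9 breakdown genes measured, Mmp2, -1.33 (SE 0.32, adjusted p 0.00739), Ctsk, -2.09 (SE 0.51, adjusted p 0.00848), and Mmp14, -0.34 (SE 0.11, adjusted p 0.031), were lower in P1 heart. In P1 lung the inhibitor Timp4 was higher, 2.24 (SE 0.21, adjusted p 1.18e-07), and Timp3 lower, -0.49 (SE 0.08, adjusted p 1.35e-04). In 6W muscle the inhibitor Timp2 was higher, 0.57 (SE 0.17, adjusted p 0.0457). Of the 5 basement membrane partners, Sparc, a collagen IV binding protein, was higher in P1 heart, 0.50 (SE 0.08, adjusted p 2.06e-04), and Hspg2, which encodes perlecan, was higher in P1 lung, 1.88 (SE 0.24, adjusted p 1.03e-05), where Nid1 was lower, -0.38 (SE 0.12, adjusted p 0.0372). No partner was called in P6 muscle, 6W heart or 6W muscle.

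Between ages, all 5 basement membrane partners were lower at 6W than at P1 in both heart fractions, and 4 of 5 at 6W than at P6 in both muscle fractions. Of all genes, 43 and 49.3% were called between ages in TdTomato+ and TdTomato- heart and 34 and 42.5% in TdTomato+ and TdTomato- muscle, of which about as many were higher as lower. Nid2, a nidogen that links laminin to type IV collagen, changed by -2.76 (SE 0.17, adjusted p 3.67e-11) in TdTomato+ and -2.22 (SE 0.18, adjusted p 5.99e-10) in TdTomato- heart cells. Of the 18 folding genes 10 were called in TdTomato+ heart (3 higher, 7 lower), 14 in TdTomato- heart (6 and 8), 11 in TdTomato+ muscle (3 and 8) and 11 in TdTomato- muscle (4 and 7). The collagen prolyl isomerase Fkbp10 was lower throughout, with log2 fold changes of -2.63 (SE 0.19, adjusted p 3.00e-10) and -2.66 (SE 0.20, adjusted p 1.13e-09) in TdTomato+ heart and muscle. Among receptors the integrin subunit Itga2 was lower and Itga1 higher at 6W, with log2 fold changes of -4.34 (SE 0.43, adjusted p 4.46e-08) and 1.91 (SE 0.19, adjusted p 6.11e-08) in TdTomato+ heart cells. Among breakdown genes Mmp14 was lower, -2.64 (SE 0.18, adjusted p 1.98e-10), and Timp4 higher, 3.76 (SE 0.50, adjusted p 2.92e-06), in the same cells. In P1 lung against P1 heart 4 of 5 partners were lower in both fractions, led by Hspg2 with -2.53 (SE 0.34, adjusted p 5.91e-06) in TdTomato+ cells.

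Besides Col1a1 and Col4a1, 16 collagens were called in no comparison of fractions. Col27a1, a fibrillar chain of cartilage and developing tissue, ran from 0 to 31.6 CPM over the libraries. Col16a1, a fibril-associated chain, ran from 0.506 to 74.4 CPM, Col5a3 from 0 to 106 CPM and Col12a1, which coats fibrils in dense connective tissue, from 0 to 19.8 CPM. Col7a1, the anchoring fibril collagen of skin, ran from 0 to 11.5 CPM and Col17a1, a hemidesmosome protein of epithelia, from 0 to 12.4 CPM. Among the lowest was Col9a1, a cartilage chain with a read in 13 of 46 libraries. The type VI chain Col6a6 was at 0 in all P1 heart TdTomato+ libraries. Pair 7 held 79 of its 81 reads in P1 lung TdTomato+ libraries, and pair 2 held 47 of its 65 reads in those of 6W heart, so that no fold is given for them. Where a group is at 0 the bound allows 3 reads over the group and covers counting error only.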

How the data were processed

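RNA of sorted endothelial cells was measured by poly(A)-selected RNA-seq in 48 libraries, of which 46 were used. The authors deposited raw counts of reads per gene with gene lengths; per the submitters' processing notes STAR, featureCounts and edgeR were used with mm10, and neither their versions nor the strand setting is given in the sources used here. A deposited RIN is a score of RNA quality, per the file headers. From the counts, edgeR 4.0.16 (R 4.3.3) gave TMM-scaled CPM and quasi-likelihood tests with Benjamini-Hochberg adjustment at 0.05. Fractions were compared in 1 model of 46 libraries with the pair as a block and 1 TdTomato+ effect for each of the 5 tissue and age combinations, after removing genes with low counts (15557 kept). Ages and organs were compared within a fraction over 23 libraries without a block (14966 genes in TdTomato+, 14802 in TdTomato-). Standard errors are the log2 fold change over the square root of F. A group at 0 was given 3 reads over the group for bounds. Levels of different genes were compared per kilobase of the deposited gene length. The pairs come from the labels, which call them matched: deviations of paired libraries from their group means correlated at -0.01 to 0.63 (median 0.32, above 0.1 in 22 of 23 pairs, over 9451 genes). The scripts were tested on simulated data. DESeq2 1.42.0, other scalings, no filter, no block, the RIN as a covariate, separate fits and left-out pairs were the alternatives.

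The collagen genes, the 16 lists of pathway and marker genes (136 of 140 listed genes were in the table) and the tests were chosen with earlier results of these data known. Values in every library are given for 13 collagens of the vessel wall and interstitial matrix and for others called between fractions with a mean of at least 5 CPM in 1 of the compared groups, and up to 3 called genes with the smallest p are named for a pathway list. Depth was 17512843 to 27622937 reads, and bounds cover counting error only.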

Additional observations from a re-analysis of the deposited data

Results flagged for a closer look

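Single libraries stood far from the rest of their group in 23 of 220 groups of 4 or 5 libraries examined (10.5%), by the gap to the nearest library over the range of the group. Chance marks about 1 in 20 groups this way where values are normally distributed, which CPM near 0 are not. A group with reads in a single library is always marked, as for Col26a1 in 6W heart TdTomato+. The share marked is therefore not read as an excess. In P1 heart TdTomato+, pair 5 was the high library for Col1a1 (82 CPM), Col1a2 (48.9 CPM), Col3a1 (116 CPM), Col26a1 (2.5 CPM) and the fibrillar sum (70.5 CPM per kilobase). In 6W heart TdTomato+, pair 2 was high for Col5a1 (27.5 CPM), Col5a2 (56.3 CPM), Col6a2 (41.6 CPM) and Col26a1 (0.0433 CPM). In 6W heart TdTomato-, pair 5 was high for Col4a5 (3.6 CPM). In P1 lung, pair 1 stood apart for Col23a1 in TdTomato+ (159 CPM) and in TdTomato- (55.2 CPM), and in TdTomato- for Col18a1 (622 CPM) and Col8a1 (2.6 CPM). Pair 7 TdTomato+ of P1 lung was high for Col2a1 (30.05 CPM). In P6 muscle, TdTomato+ pair 4 was high for Col5a1 (70.04 CPM), TdTomato- pair 3 high for Col2a1 (5.53 CPM), and TdTomato- pair 4 low for Col4a2 (4206 CPM). In 6W muscle TdTomato+, Col14a1 was high in pair 3 (1.83 CPM) and Col26a1 in pair 4 (4.06 CPM). In 6W muscle TdTomato-, Col1a2 was high in pair 4 (47.2 CPM), Col25a1 in pair 3 (0.368 CPM) and Col23a1 in pair 5 (7.38 CPM).

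The TdTomato+ difference changed with age, by the interaction term of edgeR's quasi-likelihood model, for 18 collagens in heart and 1 in muscle. The log2 differences in heart, 6W minus P1, were 6.81 for Col6a3, 6.59 for Col3a1, 6.52 for Col9a2, 4.89 for Col1a2, 4.63 for Col6a1, 4.41 for Col11a2, 4.24 for Col4a3, 4.19 for Col1a1, 4.15 for Col6a2, 3.97 for Col4a5, 3.94 for Col25a1, 3.81 for Col23a1, 3.07 for Col5a1, 1.91 for Col13a1, 1.8 for Col5a2, -0.53 for Col4a1, -0.77 for Col4a2 and -1.71 for Col8a1. In muscle, 6W minus P6, the difference was 1.21 for Col15a1.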

How the results depend on the processing

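Of 2976 values of single genes under alternatives, 2634 kept their direction and side of the threshold, 334 lost the call, 3 gained it and 5 reversed. The reversed values were Col15a1 in P1 heart with P1 heart pair 1 included (-0.03), Col4a1 in P6 muscle with the RIN as a covariate (0.01) or without pair 5 (0.05), Col4a2 in P6 muscle without pair 4 (-0.10, and up to 0.09 without pair 5), and Col26a1 in TdTomato+ heart, 6W against P1, without P1 heart pair 5 (1.43, and down to -6.80 without 6W heart pair 2). The 20 collagens called in P1 heart became 12 with the RIN as a covariate, 12 with the libraries of that tissue and age alone and 7 alone without the pair block, an alternative chosen after seeing the data, and 13 to 21 without 1 pair. The 6 of P1 lung became 2 with pair 1 of P1 heart included, 3 without the replicate block and 5 to 8 without 1 pair. The 0 of P6 muscle became 7 in a separate fit and 1 by DESeq2, and stayed 0 without any 1 pair. The 1 of 6W heart became 0 with pair 1 included, without the replicate block, with the RIN as a covariate or in a separate fit, 3 without pairs 5 and 6, 4 by DESeq2, and 0 to 2 without 1 pair. The 4 of 6W muscle became 0 with pair 1 included, 2 without the replicate block, 8 in a separate fit, 8 by DESeq2, and 3 to 5 without 1 pair. The 1 age difference in muscle became 0 with pair 1 included or without the block, and stayed 1 without any 1 pair; the 18 in heart ran from 12 to 20 and the 19 unequal differences from 17 to 21. Including the failed pair 1 removed calls in tissues other than P1 heart too, and the cause was not tested. Shares of all genes under these alternatives are not given here, so a changed count is not read as particular to collagens.

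Without 1 pair, counts by age ran from 11 (without P1 heart pair 3) to 20 in TdTomato+ and 22 to 26 in TdTomato- heart, and 11 to 16 and 17 to 20 in muscle, where pair 1 included gave 7 in TdTomato+. Counts of P1 lung against P1 heart ran from 21 to 28 and 11 to 14, and those of 6W heart against 6W muscle from 7 to 10 (5 with pair 1 included) and 9 to 11 (5 within 1 sequencing run), TdTomato+ first. With the replicate block as a random effect (limma voom), the 4 comparisons called 15, 18, 29 and 10 in TdTomato+ and 22, 18, 13 and 8 in TdTomato- cells. The 4 to 5 pairs per group limit precision, and genes under 1 CPM rest on few reads.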

Other observations

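Per gene length, Col4a1 exceeded Col4a2 in all 46 libraries, by 1.2 to 2.36 times. The ratio was 1.69 in TdTomato+ and 1.67 in TdTomato- 6W heart, 1.61 and 1.6 in P1 lung, and 1.51 and 1.73 in P1 heart, TdTomato+ first in each. No test was made of this ratio.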
